A study of Rattus norvegicus with 6 samples.

Results

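Cd8a, Cd8b, Cd3g and Cd6 encode proteins of the T lymphocyte surface, and their transcripts are described here in rat spinal cord during motor neuron disease caused by mutant superoxide dismutase. The 4 genes were chosen by name after earlier results of these arrays were known, so their own values are given as a description and without a test. Each gene had 1 probe, and the 4 genes are part of the 12978 genes named on the array. All 4 were detected on at least 1 array, as were 8752 of the named genes, where detection means a detection p-value below 0.01 (the chance that background alone gives so bright a signal). The tested animals were female Sprague-Dawley rats with the G93A mutation of SOD1, sampled before symptoms, at disease onset and at end stage. Their controls were wild-type (WT) littermates of the same sex, sampled at matched times. Every array held RNA pooled from 5 rats, so 6 pools represent 30 rats and no combination of genotype and stage was repeated. All samples carry an age label of 10 weeks, which the design text ties to the presymptomatic stage alone, and both lumbar and thoracic cord are named as the tissue. The promoter and the species of the SOD1 transgene are not given in the sources used here.

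A T cell recognises peptides on MHC molecules through its antigen receptor, which signals through the CD3 chains, of which CD3 gamma (Cd3g) is one. The CD8 coreceptor, a dimer of alpha (Cd8a) and beta (Cd8b) chains, binds MHC class I and brings the kinase Lck to the receptor on cytotoxic T cells. CD6 is a scavenger-type receptor of T cells that binds the adhesion molecule ALCAM. In the rat, the CD8 alpha chain is also carried by natural killer cells and by some macrophages, and CD4 by macrophages and microglia, whereas the beta chain is more restricted to T cells. Healthy cord holds few T cells, and in rodent models of SOD1 disease lymphocytes have been found in the cord.

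Gene names depend on the order in which probe IDs are set against the values. With the IDs sorted as text, 1.38% of 1304 odorant, pheromone and taste receptor probes, which cord should lack, gave signal in every pool, and 88.5% of 182 housekeeping probes (ribosome, respiration, proteasome) did. In the deposited order these shares were 37.8% and 42.9%. Of 22226 probes, the presymptomatic mutant array detected the fewest (9116) and the presymptomatic WT array the most (10942). Sod1 intensity was 8864.2, 7417 and 7445.7 in the presymptomatic, onset and end-stage mutant pools, against 6922.9, 7299.6 and 8821.9 in the WT pools, and whether its probe reads the transgene is not known here. As for the tissue, Nefl, the light neurofilament of axons, and Mbp, a myelin protein, were detected in every pool. Nefl was at 16276, 7345.3 and 8753.8 in the presymptomatic, onset and end-stage mutant pools, against 14614.3, 13308.2 and 19253.3 in the WT pools. The 2 symptomatic mutant pools, where the CD8 chains were high, thus held the lowest Nefl signal (log2 difference from WT −1.0, adjusted p = 0.0585 by limma on the default scale explained below, and −0.99, adjusted p = 0.0323 on the regressed scale). All 5 cord genes detected had lower means in symptomatic mutant than in WT pools, with a median of −1.0 and none called on the default scale, and their part in the members' signal was not tested. Gfap was not found among the named probes.

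Of the 4 genes, RefSeq promoters were at hand for Cd8a and Cd3g. These 2 are shown because no promoter was at hand for Cd8b or Cd6. Cd8a had the largest difference of the 4 genes between symptomatic mutant and WT pools, and Cd3g was detected in every pool. Each line gives the 250 bases before the annotated start on GRCr8, read 5′ to 3′ on the strand of the gene, at chr4:104923866-104924115 (plus strand) for Cd8a and chr8:54183919-54184168 (minus strand) for Cd3g. Capitals mark matches to the motifs searched on both strands.
Cd8a: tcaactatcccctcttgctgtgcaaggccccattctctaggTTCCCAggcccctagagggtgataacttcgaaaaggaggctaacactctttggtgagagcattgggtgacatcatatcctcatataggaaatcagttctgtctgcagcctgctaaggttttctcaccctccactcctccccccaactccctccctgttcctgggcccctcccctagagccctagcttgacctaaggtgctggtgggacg
Cd3g: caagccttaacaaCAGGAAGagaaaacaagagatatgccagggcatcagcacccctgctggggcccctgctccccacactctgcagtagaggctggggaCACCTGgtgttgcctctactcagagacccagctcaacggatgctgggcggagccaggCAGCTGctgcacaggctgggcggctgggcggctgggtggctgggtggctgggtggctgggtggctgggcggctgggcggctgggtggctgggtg

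In the Cd8a window the match was the Ikaros-type motif TGGGAA on the minus strand, which 22.1% of 33469 rat promoter windows of the same length hold. The Cd3g window held the ETS-type CAGGAAG (10.2% of windows) and the E-box letters CAGGTG (15.9%) and CAGCTG (12%). None of these matches overlaps another. Neither window holds the RUNX letters TGTGGT (14.5% of windows) or their variant TGCGGT (5.02%). The second ETS form searched, CCGGAAG (7.27%), the GATA factor motif spelled AGATAA (10.3%), the TCF/LEF motif spelled CTTTGA (13.9%) and the core promoter element spelled TATAAA (12.9%) are not in them either. The windows do not share a motif, and the GC content was 54.4% for Cd8a and 66.4% for Cd3g, with a median of 51.2% over all windows.

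Cd8a was at or near background in the 4 pools without symptoms and clearly above it in both pools with symptoms. Its intensity was 4.4 in the presymptomatic, 112.4 in the onset and 197 in the end-stage mutant pool, against 15.3, 5.9 and 1.4 in the WT pools of the same stages. The probe was detected in both symptomatic mutant pools and, among the other 4 pools, in the presymptomatic WT pool alone. Intensities are linear array units from which the authors had subtracted background, so values around 0 and below it occur. The background noise of an array, read from its detection p-values, had an SD between 6.52 and 8.46 of these units. The lowest symptomatic pool thus stood 14.3 noise SDs above background, and the brightest of the other pools 1.9.

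Cd8b was likewise brightest in the end-stage mutant pool and next in the onset mutant pool. Its intensity was −0.7 in the presymptomatic, 64.8 in the onset and 90.7 in the end-stage mutant pool, against 3.7, −6.7 and −3.6 in the WT pools. It was detected in the onset and end-stage mutant pools and in none of the other 4, a pattern that 0.976% of the 12711 probes detected somewhere share. The symptomatic mutant pools did not overlap with the other pools for either CD8 chain. In deposited intensity, 14.8% of the 12711 probes had both symptomatic mutant pools above the other 4 pools, Cd6 and Cd3g included. Among those other pools, neighbours in the order of levels lay within 1 noise SD of each other for Cd8b, and for Cd8a with the presymptomatic WT pool left aside.

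Cd6 was present in every pool and brighter in the symptomatic mutants. Its intensity was 23.5 in the presymptomatic, 78.2 in the onset and 92.8 in the end-stage mutant pool, against 33.2, 28.3 and 39.1 in the WT pools. The WT pools averaged 33.5 ± 5.44 (SD, n = 3). Both symptomatic mutant pools lay above them and above the presymptomatic mutant pool, as they did for 14.8% of probes. The presymptomatic mutant value had no fixed side, since it was 9.7 units below its WT pool in intensity and 0.27 above it on the log2 scale with regressed noise, explained below.

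Cd3g differed from the other members in standing at least 5.8 noise SDs above background in every pool. Its intensity was 96.6 in the presymptomatic, 97.9 in the onset and 116 in the end-stage mutant pool, against 75.7, 81.3 and 50 in the WT pools. At each stage the mutant pool was the brighter one, and the presymptomatic mutant pool was within 1 noise SD of the onset mutant pool. After normalization the presymptomatic mutant pool was the highest of all 6 (log2 intensity 7.19, against 6.99 and 7.15 in the onset and end-stage mutant pools). The WT pools averaged 69 ± 16.7 (SD, n = 3).

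**Figure D1:**
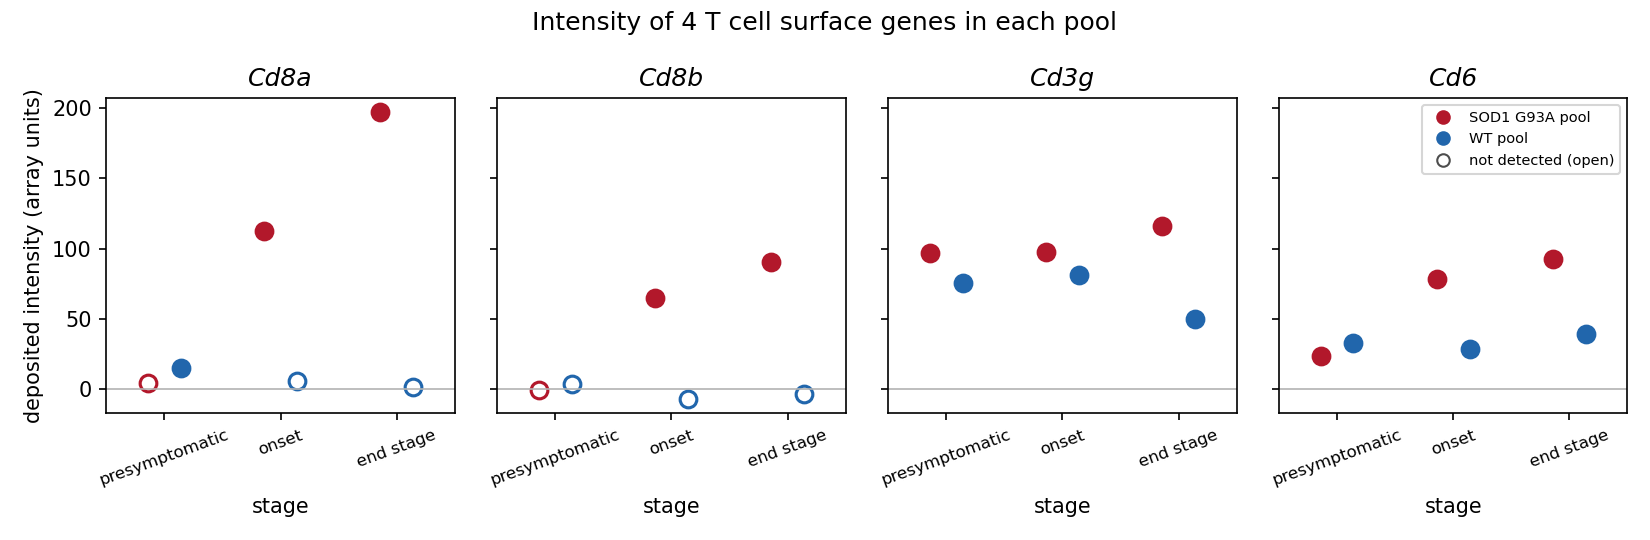
Deposited intensity (y axis, linear array units) of each gene by stage (x axis) in SOD1 G93A pools (red, left) and WT pools (blue, right), 1 array of 5 pooled rats per point, with open circles where the probe was not detected. Cd8a reaches 112.4 and 197 and Cd8b 64.8 and 90.7 in the symptomatic mutant pools, while Cd3g is between 50 and 116 in all pools.

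The same values were put on a log2 scale in 2 ways, because the size of a difference for such dim probes depends on how background noise is estimated. The default neqc procedure gave a high noise estimate and pressed all dim probes towards its floor of 6.6 (log2 intensity). A noise level regressed on the detection p-values gave a floor of about 4.2, and on this scale dim probes keep more of their difference. The 2 scales are called default and regressed below. Running neqc without 97 probes that had an intensity over 50 but a detection p-value of 0.01 or more, a step chosen after the data were seen, lowered its floor to 4.18 and gave differences like those of the regressed scale (Cd8a 2.61, Cd8b 2.03, Cd3g 0.49, Cd6 1.0).

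On the default scale Cd8a averaged 7.28 in the symptomatic mutant pools and 6.7 ± 0.02 in WT pools (SD, n = 3), a log2 difference of 0.59. The regressed scale gave 7.23 in the symptomatic mutant and 4.62 ± 0.21 in the WT pools (SD, n = 3), a difference of 2.61. Cd8a was detected in 1 of the 3 WT pools, so the WT mean rests mostly on signal not above background. With each WT value below the lowest signal detected on its array raised to that signal, the difference is 5.61-fold (1.49-fold on the default scale). For Cd8b the difference was 0.3 on the default scale and 2.0 on the regressed scale. No WT pool detected it, and with its WT values raised in the same way the second becomes 3.2-fold. Cd6 differed by 0.19 (WT SD 0.04) on the default and 1.01 (WT SD 0.33) on the regressed scale. Cd3g differed least, by 0.15 (WT SD 0.03) and 0.5 (WT SD 0.16). Each of these differences is larger than 1 SD of the WT pools, but the genes were picked for such a pattern, and 16.5% of the 12711 probes had both symptomatic mutant pools above all 3 WT pools on these scales, as all 4 members did. Both symptomatic mutant pools lay above the other 4 pools for 12.6% of probes on these scales, Cd8a, Cd8b and Cd6 among them.

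Set against the WT pool of the same stage, the difference of Cd8a on the regressed scale was −0.26 before symptoms, 2.19 at onset and 3.27 at end stage. WT was below detection at the last 2 stages. With the WT value raised to the lowest signal detected on its array, Cd8a was 4-fold higher at onset and 8.5-fold at end stage (1.26-fold and 1.76-fold on the default scale). The reference in these folds is the higher of the gene's own WT value and the lowest signal detected on the WT array. It is not a strict limit, since a signal that was not detected can exceed it. On the end-stage WT array the lowest detected signal was 7.372 units, less than the noise SD of that array (8.463). Cd8b differed by −0.07, 1.7 and 2.4 over the 3 stages. Against the same kind of reference it was 2.41-fold higher at onset and 4.35-fold at end stage (1.11-fold and 1.28-fold on the default scale). The CD8 chains were brighter at end stage than at onset, by 84.7 intensity units for Cd8a and 25.9 for Cd8b, with 1 pool at each stage.

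Cd6 reached 1.02 at onset and 0.91 at end stage on the regressed scale. On the default scale its difference was 0.16 at onset and 0.22 at end stage, so the 2 scales order these stages differently. The differences of Cd3g ran 0.76, 0.15 and 0.92 over the 3 stages, lowest at onset. Counting differences of at least 2-fold, 0 of 4 members reached it at any stage on the default scale, where 0.338%, 1.55% and 3.11% of probes did so before symptoms, at onset and at end stage. On the regressed scale it was Cd8a, Cd8b and Cd6 at onset (3.07% of probes) and Cd8a and Cd8b at end stage (6.09%), with none before symptoms (2.86%). No member was 2-fold lower at any stage on either scale, as 2.93%, 0.188% and 1.69% of probes were over the 3 stages on the default scale and 8.48%, 0.724% and 3.46% on the regressed scale. Each of these sets 1 array against 1 and has no replicate check. In bulk cord RNA, more cells of a type and more RNA per cell cannot be told apart.

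**Figure D2:**
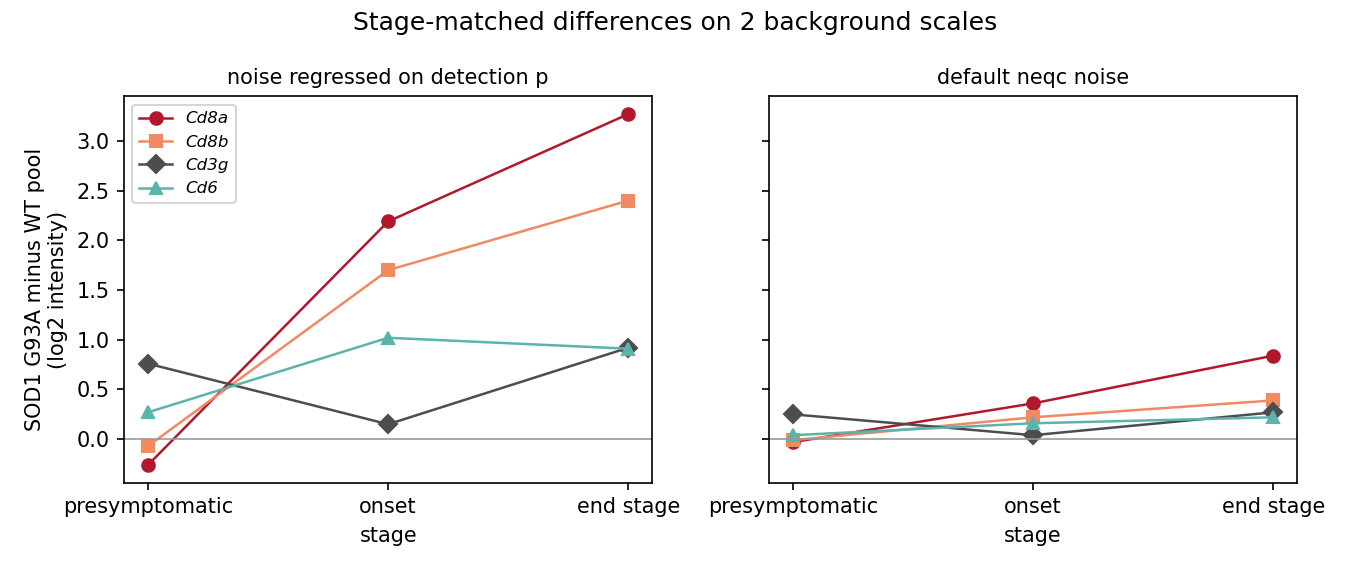
Log2 intensity of the SOD1 G93A pool minus the WT pool (y axis) at each stage (x axis) for the 4 genes, with 1 pool on each side, on the regressed (left) and default (right) noise scale. Cd8a climbs to 3.27 at end stage on the left and 0.84 on the right, and Cd3g is lowest at onset on both.

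Across the 6 pools the levels of Cd8a and Cd8b ran in parallel (Pearson's r = 0.99 on the default scale), Cd6 followed them (0.96 with either chain), and Cd3g did so least (0.48 with either chain and 0.47 with Cd6). These are descriptions over 6 points that share 2 high pools. In the RefSeq annotation Cd8b and Cd8a are immediate neighbours on the chromosome. Cd3g lies next to Cd3d and Cd3e, and Cd6 next to Cd5.

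Signal in these neighbours was mixed. Cd3d, another CD3 chain, was dim in all pools, at 24, 25.5 and 26.3 in the presymptomatic, onset and end-stage mutant pools, against 13.7, 17.3 and 14.4 in the WT pools (adjusted p = 0.649, limma). Cd3e, the CD3 chain most used to mark T cells, was not detected in any pool and reached at most 13.5. Cd5, a receptor related to Cd6, was not detected either, at 4.8 or below. On the other side of Cd6, Slc15a3, a peptide transporter of lysosomes, was at 52.5, 226.5 and 309 in the mutant pools, against 40.8, 55.1 and 58.9 in WT, and did not pass the test (log2 difference 0.93 on the default scale, adjusted p = 0.098, limma).

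The genes most like each member were found by the Pearson correlation over the 6 pools on the default scale, among genes that vary at least 0.5 times as much. For the mean of the 4 members they were Apobec3, a cytidine deaminase that restricts retroviruses (r = 0.999), Ctla2a (0.998), Fblim1 (0.997), Pofut2 (0.997) and Knstrn (0.995), of 5408 genes considered. Galnt3 (r = 1.0), the macrophage elastase gene Mmp12 (0.999) and the lysophosphatidic acid receptor gene Lpar3 (0.998) were closest to Cd8a. Mmp12 was at −2.3, 164.9 and 323.3 in the presymptomatic, onset and end-stage mutant pools and between −3.0 and 1.3 in WT pools. Closest to Cd8b were Itgb2, the shared beta chain of leukocyte integrins (0.999), C3h15orf48 (0.997) and Pros1 (0.997), and closest to Cd6 Fbxl6 (0.997), Unc13d (0.995), which is needed for release of cytotoxic granules, and Oplah (0.995). Cd3g had its nearest neighbours in Bcl10 (0.988), an adaptor of antigen receptor signalling, Snrpb2 (0.986) and Gins4 (0.982). These are the best matches out of 3842 to 6098 genes over 6 points, so r values near 1 arise readily from the search. Both symptomatic mutant pools lay above the other 4 pools for 12.6% of probes, and shared function was not tested.

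Other genes of T cells were then counted from 7 lists that cover the receptor, coreceptors, costimulation, cytokine receptors, signalling, transcription factors and effectors. Of 118 listed genes besides the members, 85 were on the array under that name, 43 were detected somewhere and 42 nowhere. The test was limma's on the default scale, with the 2 symptomatic mutant pools against the 3 WT pools and the presymptomatic mutant pool as a group of its own, and p-values adjusted over 12711 probes. It called 156 probes higher (1.23%) and 34 lower (0.267%). Of the 43 T cell genes 4 rose and 0 fell, and their median log2 difference was 0.04, against −0.01 over all 8752 named genes. On the regressed scale the median was 0.35, against −0.04, with 4 genes called higher and 0 lower, where 3.1% and 0.362% of probes were. These medians cover detected genes only, and detection in the symptomatic mutant pools alone was enough to enter. That was so for 4 of the 43 T cell genes and 82 of the 8752 named genes, which can raise the medians. With no filter the T cell median on the default scale was 0.01.

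The 4 genes that rose are signalling or cytoskeletal genes of many leukocytes. Ptpn6, the phosphatase SHP-1, rose by 1.43 ± 0.06 (log2, SE, adjusted p = 0.0124), with intensities of 551.6 and 513.4 in the symptomatic mutant pools and 171.4 to 184.7 in WT pools. Coro1a, an actin-binding coronin, rose by 1.3 ± 0.09 (adjusted p = 0.0251), Arhgdib by 0.81 ± 0.09 (adjusted p = 0.048) and Vav1, an exchange factor for Rac, by 0.33 ± 0.03 (adjusted p = 0.0446). On the regressed scale Arhgdib was not called (adjusted p = 0.0752) and Il21r, the interleukin 21 receptor, was (0.95, adjusted p = 0.0472). The count was 3 without the onset mutant pool and 0 without the end-stage mutant pool or without any 1 of the WT pools (unadjusted p below 0.05 for 5 to 7 of the 43).

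Of the antigen receptor chains besides Cd3g and Cd3d, Cd3e was not detected, as given above. Cd247, the zeta chain, was at 10.8, 8.6 and 20.1 in the mutant pools and between 1.5 and 7.0 in WT, detected at end stage in the mutant alone (log2 difference 0.05, adjusted p = 0.633). Trat1, an adaptor of the receptor, was not detected, and Cd2 and the T cell receptor constant genes were not found among the named probes. Cd4, the coreceptor of helper T cells, was not detected in any pool and reached at most 15.3. The kinase Lck, the binding partner of CD8, was at 13.6, 15.8 and 26.6 in the presymptomatic, onset and end-stage mutant pools. WT pools had 11.7, 14.5 and 4.4 (adjusted p = 0.658, limma). Lck is named for its link to CD8, after its values were seen. The pan-leukocyte phosphatase gene Ptprc (CD45) was at 2.6, 17.9 and 14.0 in these mutant pools, against 7.2, 7.9 and 4.3 in WT pools (adjusted p = 0.643, limma). Lat, an adaptor of T cell receptor signalling, was at 41.3, 40.5 and 33.7 in the presymptomatic, onset and end-stage mutant pools. In the WT pools of these stages it was at 17.5, 26.5 and 30.1 (adjusted p = 0.74, limma). Of the listed T cell markers besides the members, Cd3e, Cd5 and Cd4 were thus below detection at this signal. Cd3d and Lat were detected in all 6 pools, Lck in 3, and Cd247 and Cd28 in 1 each.

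Among costimulatory and inhibitory receptors, 6 of 19 genes on the array were detected and 0 passed. Lag3, an inhibitory receptor that binds MHC class II, was detected in the symptomatic mutant pools alone (20.7 and 19.7, against −1.5 to 9.9 in WT, adjusted p = 0.473). Ctla4 was at 73.2 and 43.1 in the symptomatic mutants, against 38.7 to 73.2 in WT (adjusted p = 0.908). Cd69, Tnfrsf4, Cd28 and Cd7 had differences between −0.02 and 0.06. Of the cytokine and chemokine receptors, Cxcr3, the receptor for Cxcl9, Cxcl10 and Cxcl11, was at 30.3 and 23.3 in symptomatic mutants, against 0.6 to 8.7 in WT. It did not pass on the default scale (log2 difference 0.08, adjusted p = 0.295, limma) or the regressed scale (0.75, adjusted p = 0.0791). Cxcr4 (0.13), Il21r (0.13), Ccr6 (0.04), Ccr2 (−0.01) and Ccr7 (−0.05) did not pass on the default scale either.

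Cytotoxic effector genes, which act downstream of CD8 T cell recognition, gave no call in 8 detected genes. Gzmb, granzyme B, was at 5.6 and 14.3 in symptomatic mutants and between −15.9 and 9.7 in WT (adjusted p = 0.715), and the perforin gene Prf1 at 42 and 30.2, against 21.3 to 42.4 (adjusted p = 0.852). Ccl5 (0.23), Ctsw (0.06), Nkg7 (0.04), Gzmk (−0.03) and Gzma (−0.03) did not pass, and Ifng, interferon gamma, was not detected, at 5.2 or below. Of the transcription factors, Runx1 (0.27), Lef1 (0.08), Tox (0.01) and Zbtb7b (0.01) did not pass and Runx3, Tbx21, Gata3 and Foxp3 were not detected. In signalling, Ptprcap (0.34), Rhoh (0.31), Fyn (0.2), Ptpn7 (0.14), Sh2d1a (−0.02) and Prkcq (−0.07) did not pass.

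**Figure D3:**
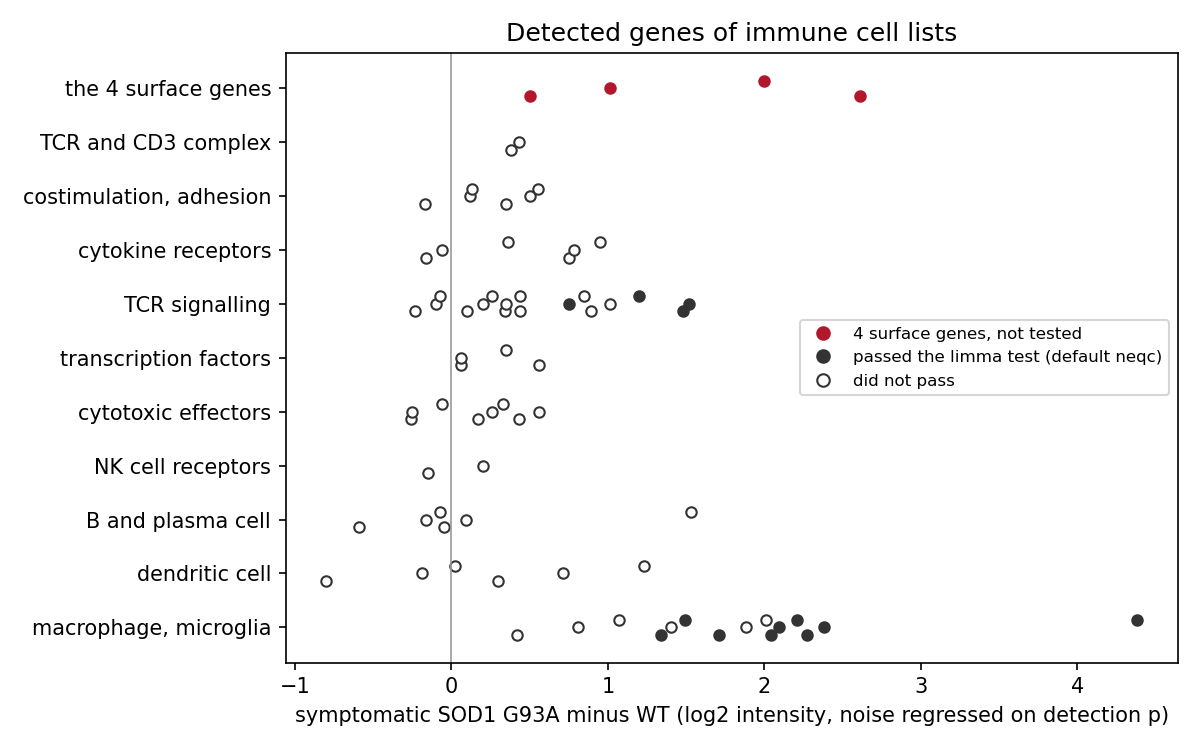
Difference of the symptomatic SOD1 G93A pools (mean of 2) from the WT pools (mean of 3) in log2 intensity on the regressed scale (x axis) for each detected gene of the lists (rows); red marks the 4 members, black the genes that passed limma's test on the default scale. Of the rows shown, the T cell receptor signalling row holds 4 black points and the macrophage and microglia row 9, with Cd68 at 4.38.

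Among the lists for other immune cells, the macrophage and microglia list was the one with calls on the default scale. Of 16 macrophage and microglia genes on the array 15 were detected and 9 rose, namely Cd68 (4.45), Trem2 (2.42), Tyrobp (2.28), C1qb (2.28), C1qc (2.21), C1qa (2.18), Laptm5 (1.89), Aif1 (1.38) and Itgam (0.5), at adjusted p from 0.00788 to 0.0446, with a summed intensity of 25436 and 27692 in the symptomatic mutant pools, against 5547 to 6743 in WT pools. Cd53 (1.35), Cd37 (0.66), Fcgr2b (0.58), Cd14 (0.53), Mrc1 (0.09) and Cd163 (0.05) did not pass, and Msr1 was not detected. On the regressed scale 11 of the 15 were called higher, Cd53 (2.01 there, adjusted p = 0.00273) and Cd37 (1.4 there, adjusted p = 0.00958) in addition. Their part in the CD8 and CD6 signal was not tested. Natural killer cell receptors were detected in 2 of 13 genes, Klrb1a (0.02) and Klrk1 (−0.02), and Ncr1 and Klrd1 were not detected. Sums of the detected genes were 25, 22 and 9 in the presymptomatic, onset and end-stage mutant pools, against 6 to 22 in WT. B and plasma cell genes were detected in 6 of 11, with sums of 78, 141 and 180 in these mutant pools, against 62 to 104 in WT. The sums of 141 and 180 came mostly from Blnk (0.42, adjusted p = 0.136, limma), an adaptor that macrophages also use. Mzb1 (0.02), Ms4a1 (−0.01), Spib (−0.01), Pax5 (−0.01) and Cd79b (−0.06) did not pass.

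Dendritic cell genes gave 6 of 10 detected and no call (Cd1d1 0.31, Batf3 0.14, Irf8 0.03, Ccl17 0, Flt3 −0.13, Cd83 −0.19), with Xcr1 and Clec9a not detected. Blood cell genes gave 14 of 17 detected and no call. Their sums were 51212, 52781 and 40688 in the presymptomatic, onset and end-stage mutant pools, against 47204 to 58406 in WT. Pf4 (1.99, adjusted p = 0.0516, limma), Lcn2 (1.1), S100a8 (0.11) and Hba-a1 (0.02) were highest, and Alas2 (−0.26) and Hbb-b1 (−0.85) lowest. On the regressed scale Blnk (a log2 difference of 1.53, adjusted p = 0.0119), Batf3 (a difference of 1.23, adjusted p = 0.0116) and Pf4 (a difference of 1.81, adjusted p = 0.00519) were called higher and Alas2 lower (a difference of −1.06, adjusted p = 0.0448). The part of NK, B, dendritic or blood cells in the members' signal was not tested.

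Of 13 detected genes for ligands of the members and for peptide loading of MHC class I, none passed on the default scale and RT1-A1 rose on the regressed scale (1.32, adjusted p = 0.0174). On the default scale RT1-A2 and RT1-A1, classical class I heavy chains, differed by 1.58 (adjusted p = 0.423) and 1.37 (adjusted p = 0.0822), B2m by 0.5 (adjusted p = 0.155) and RT1-S3 by 0.47. Alcam, the ligand of CD6, was at 1506.5 and 2119.9 in symptomatic mutants, against 1946.3, 2427.6 and 1729.2 in WT (adjusted p = 0.836), and Cdcp1, its other ligand, differed by −0.01. Of 13 detected chemoattractant and adhesion genes 3 rose, namely the Cxcr3 ligands Cxcl9 (3.25 ± 0.2, SE, adjusted p = 0.0217) and Cxcl11 (2.19 ± 0.12, adjusted p = 0.0174) and the chemokine gene Ccl2 (1.01 ± 0.09, adjusted p = 0.0361). Cxcl10 (1.49, adjusted p = 0.0789) and Icam1 (0.96, adjusted p = 0.085) did not pass, though both did on the regressed scale (adjusted p = 0.0166 and 0.0406). Nor did Cxcl12 (0.22), Ccl7 (0.22), Sele (−0.02) and Ccl19 (−0.08) pass on the default scale.

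With all 3 mutant pools against the WT pools and stage as a block, limma called 0 of 12711 probes (smallest adjusted p = 0.386, 1189 probes at an unadjusted p under 0.05), so no T cell gene passed there. The presymptomatic mutant pool, which has the CD8 chains at background, enters that comparison as a mutant. With that pool left out the comparison also called 0 probes, and the cause of this result was not tested. Nothing in the labels says how far pools share animals, litters or array slides, and p-values measure the spread between these pools only.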

How the data were processed

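Spinal cord RNA of 6 pools was labelled and hybridised to Illumina rat arrays, 1 per pool, per the labels' protocols. The authors deposited a linear, background-subtracted and scaled intensity with a detection p-value per probe, and a second table of intensity values they had normalized by an unstated method. The submitters' processing notes name BeadStudio 3.2.6. Samples were grouped by genotype and stage in the labels. Each row of values took the ID at the same place in the text-sorted ID list, and gene names came from the platform annotation (13192 of 22226 probes have 1 symbol, 9034 have none here and 0 have several; RefSeq identifiers matched 13151 and changed 0 symbols). No sample column was left unused.

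The default scale came from neqc of limma 3.58.1, run in R 4.3.3 (offset 16, quantile, log2), keeping 12711 probes with a detection p below 0.01 on at least 1 array. For a gene with several probes the brightest kept probe stood. Values are log2 intensity of the deposited signal. The regressed scale takes each array's noise mean (1.15 to 1.68) and SD (6.52 to 8.46) from a fit of intensity on the normal quantile of the detection p between 0.05 and 0.95. Tests were limma's lmFit and eBayes, two-sided, with Benjamini-Hochberg adjustment over all kept probes and a threshold of 0.05. The comparison of symptomatic mutant with WT pools had 3 residual degrees of freedom and that of genotype with stage as a block 2. On simulated data for the first, with 12711 probes, changes of 0.5, 1, 2 and 4 (log2) were recovered in 60%, 76%, 98% and 100% of 50 probes each, with 10 false calls. The median estimates were 0.51, 1.02, 1.99 and 4.01, so these changes were not pressed towards a floor. The rates thus do not carry over to dim probes, whose differences shrink on the default scale. The number of arrays limits the precision.

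The members and lists were chosen with earlier results of these data known. Named in the text are the members, list genes that passed, the 4 highest and 2 lowest differences of each list, some T cell markers and ligands whatever their value, and the genes most correlated with the members. Other background corrections, offsets, normalizations, filters, variance priors, blocks and left-out pools were tried as alternatives.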

Additional observations from a re-analysis of the deposited data

Results flagged for a closer look

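The stage-matched differences of both CD8 chains changed sign between the presymptomatic and the symptomatic stages. On the default scale Cd8a differed by −0.03 between the mutant and WT pool before symptoms, against 0.36 at onset and 0.84 at end stage. Cd8b differed by −0.01 before symptoms, against 0.22 at onset and 0.39 at end stage. The difference between stages was not tested, since each rests on 1 mutant and 1 WT pool, and the presymptomatic differences are about as large as the SD of the 3 WT pools (0.02 for each gene). No group held 4 samples, so single pools were not screened for outlying values.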

How the results depend on the processing

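The direction of all 4 members held with each alternative background, offset and normalization and with each pool left out. With the probe IDs as deposited, which read other probes, it did not (Cd8a 0.0, Cd8b 0.08, Cd3g −0.13, Cd6 0.01). The members were chosen with earlier results of these arrays known, so a direction that held is a description and no test. The size of their differences depended on the background. In the order Cd8a, Cd8b, Cd3g and Cd6 it was 2.61, 2.0, 0.5 and 1.01 with regressed noise, 2.61, 2.03, 0.49 and 1.0 with neqc without the 97 discordant probes (chosen after seeing the data), 1.96, 1.58, 0.4 and 0.73 without background correction, 0.66, 0.39, 0.2 and 0.26 with a 75th-percentile shift and 2.85, 1.89, 0.62 and 1.4 with the deposited normalized values (floored at 16). At offset 50 Cd8a and Cd8b stood at 0.46 and 0.23. Leaving out 1 pool gave 0.35 to 0.82 for Cd8a, 0.21 to 0.39 for Cd8b, 0.07 to 0.23 for Cd3g and 0.12 to 0.26 for Cd6.

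Symptomatic mutant pools against WT gave 190 called probes, but 440, 438, 538, 413 and 64 in the first 5 of those settings in the same order, and 602 with a trended, robust prior. With stage as a block, which leaves 1 residual degree of freedom, 0 probes and 0 T cell genes passed by limma (smallest adjusted p = 0.242, 1836 probes and 5 T cell genes at an unadjusted p under 0.05). Leaving out 1 pool gave 0 (without the end-stage mutant or the end-stage WT pool) to 208 probes, 0 to 4 T cell genes and a T cell median of 0.03 to 0.05. The genotype comparison with stage as a block stayed at 0 throughout (0 to 0 with a pool left out, and 0 with no block). No paired analysis by replicate number was possible because the labels number no replicates. T cell genes called were 2 with the 75th-percentile shift and 1 with the deposited values, and their median was 0.35, 0.37, 0.26, 0.14 and 0.28 in the 5 settings and 0.01 with no filter.

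Probes at least 2-fold higher before symptoms, at onset and at end stage (38, 173 and 351 by default) were 321, 343 and 687 with regressed noise, 319, 343 and 687 without the discordant probes, 404, 439 and 830 with the deposited values and 496, 457 and 802 at 1.5-fold. Before symptoms they were also 79 without background correction, 19 at offset 50 and 6 against the mean of the WT pools. T cell genes at least 2-fold higher (0, 2 and 2) were 1 before symptoms and 7 at end stage with regressed noise, 1 and 8 without the discordant probes, 2, 6 and 8 with the deposited values, and 1 at end stage with the percentile shift. Stage-matched differences cannot lose a pool, so none was left out there. The cause of these shifts was not tested, apart from the noise estimate of neqc, which fell when 97 probes were left out. Cd8a and Cd8b were at or near background in the 4 pools without symptoms, which limits the precision of their differences.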

Other observations

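Cxcl16, a chemokine gene that is made as a membrane-bound adhesion molecule for T cells, is one of the 97 probes whose detection p-value and intensity disagree. Its intensity was 141.6, 585.8 and 665.2 in the presymptomatic, onset and end-stage mutant pools, against 132.7, 203.1 and 121.9 in the WT pools, yet no array had a detection p below 0.01, so it was left out of the test. Of these 97 probes 16 carry a gene name.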
